A study of Mus musculus with 8 samples.

Results

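The genes described here are 10 standard readouts of the ERK pathway, read as rows of the deposited count table by symbol: the transcription factor genes Etv1, Etv4, Etv5 and Egr1, the feedback inhibitor genes Spry2, Spry4, Spred1, Dusp4 and Dusp6, and the cyclin gene Ccnd1. All 10 were found among 45556 named genes, and all 10 were among the 13500 genes that passed the filter on low counts. The samples are cultures of B16F10, a mouse melanoma line of C57BL/6 origin, measured by bulk RNA sequencing. The protocol names 2 sequencer models and not which library was read on which, so the instrument or read length may differ between libraries, and this was not tested. One line carried the vector pLKO (genotype pLKO) and the other a hairpin against Drg2 (genotype shDRG2), which encodes a GTP-binding protein. Each was sequenced untreated and after treatment with IFN-γ at 5 ng/ml for 24 hours, which gave 4 groups of 2 libraries. Each genotype is represented by 1 line, so a difference between pLKO and shDRG2 is a difference between these lines, and it cannot be told apart from other effects of the hairpin or of deriving the lines. Whether the 2 libraries of a group came from separate cultures is not stated. The p-values here set each difference only against the scatter of these samples, which may be technical.

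ERK is the last kinase of the RAS, RAF and MEK cascade, which carries growth factor signals from surface receptors to the nucleus and is active in most melanomas. Active ERK switches on a set of genes that includes its own inhibitors. DUSP phosphatases remove the activating phosphates from ERK and related kinases, while Sprouty and SPRED proteins act upstream, at the level of RAS and RAF. ETV1, ETV4 and ETV5 form the PEA3 group of ETS transcription factors. The repressor Capicua (CIC) holds down ETV, DUSP6 and Sprouty genes until ERK signalling removes it. The mRNA levels of such genes are therefore widely used as readouts of ERK activity, although other pathways also act on each of them.

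Promoters listed in RefSeq (GRCm38.p6) were available for 5 of the 10 genes, Etv1, Etv5, Dusp6, Spry2 and Spred1, and the 250 bases before the most upstream listed start were searched on both strands. For Etv1 this window (chr12:38779832-38780081) lies inside the gene as GENCODE gives it, so the bases before its GENCODE start were not searched. The Etv5 window (chr16:22439571-22439820) lies partly inside its gene. The motifs searched were the CIC octamer as TGAATGAA, TGAATGGA, TCAATGAA or TCAATGGA, the cyclic AMP element TGACGTCA, the AP-1 site TGACTCA, the gamma-activated site TTCNNNGAA, the ETS core CCGGAA and the interferon-stimulated response element core, GAAA and again GAAA with 2 bases between. No pattern contains another, though matches of different motifs may overlap. The only matches were 1 CIC octamer each in Dusp6 and Spry2, and 3.19% of the 32851 listed promoters hold such an octamer in the same window. The other shares were 1.55% for TGACGTCA, 4.46% for TGACTCA, 7.02% for TTCNNNGAA, 12.03% for CCGGAA and 2.98% for the interferon element. Both sequences are shown because they carry a match and belong to genes that moved in opposite directions under IFN-γ. Capitals mark the octamer, which lies on the other strand in each. It covers bases 24 to 17 before the start in Dusp6 (chr10:99262981-99263230, plus strand) and bases 54 to 47 before the start in Spry2 (chr14:105896820-105897069, minus strand). A match describes the letters only.
Dusp6: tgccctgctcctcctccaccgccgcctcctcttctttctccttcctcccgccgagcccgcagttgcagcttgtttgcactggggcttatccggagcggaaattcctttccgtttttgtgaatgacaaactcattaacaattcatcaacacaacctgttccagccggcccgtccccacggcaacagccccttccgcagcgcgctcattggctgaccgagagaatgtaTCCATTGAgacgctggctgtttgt
Spry2: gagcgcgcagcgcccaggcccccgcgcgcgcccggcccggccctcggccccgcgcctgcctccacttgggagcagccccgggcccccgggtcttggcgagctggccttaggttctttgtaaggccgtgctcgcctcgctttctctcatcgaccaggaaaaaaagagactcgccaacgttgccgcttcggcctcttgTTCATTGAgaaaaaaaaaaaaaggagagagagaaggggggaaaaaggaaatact

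Library totals ran from 25422758 to 36654519 counts. In the hairpin check Drg2 was at 64.3 to 76.3 CPM (counts scaled to a common library size after TMM adjustment) in the pLKO libraries and at 6.46 to 9.34 CPM in the shDRG2 libraries. The response to IFN-γ was checked on Irf1, a transcription factor gene that it induces directly. Irf1 rose 50.4-fold in pLKO and 58.5-fold in shDRG2 cells (adjusted p = 1.02e-09 and 7.72e-10). All 8 melanocyte markers were detected, with a summed level of 9645 to 14975 CPM per library. Of 7 immune markers, 4 were at 0 in every library, Cd3e, Itgam and Adgre1 among them, and the list summed to 0.465 to 1.298 CPM. The endothelial list summed to at most 5.91 CPM, with Cdh5 and Kdr at 0, the keratinocyte list to at most 0.688 CPM, with Epcam at 0, and the fibroblast list to at most 19.5 CPM, mostly Col1a2. The fibroblast sum was lower with IFN-γ in both lines, at 4.16 to 5.74 CPM against 15.8 to 19.5 CPM. The endothelial sum was at 5.00 to 5.91 CPM in untreated shDRG2 and 1.497 to 2.16 CPM in untreated pLKO libraries, and at most 0.700 CPM with IFN-γ. The difference between untreated lines lay in Vwf, with means of 4.96 CPM in shDRG2 and 1.32 CPM in pLKO cells. Pecam1 was at 0.493 and 0.511 CPM. Of the melanocyte markers, 4 of 8 fell with IFN-γ in pLKO and 7 of 8 in shDRG2 cells, Tyr the most. The part of these shifts in the results was not tested. In bulk RNA, fewer cells with a transcript and less of it per cell cannot be told apart.

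In GENCODE M21 on GRCm38 the PEA3 genes are Etv1 (chr12:38779380-38870484, plus strand), Etv4 (chr11:101769742-101785371, minus) and Etv5 (chr16:22381309-22439719, minus). The phosphatase genes are Dusp4 (chr8:34807297-34819894, plus) and Dusp6 (chr10:99263231-99267489, plus). Spred1 lies at chr2:117121374-117182279 (plus) and Ccnd1 at chr7:144929931-144939925 (minus). Each value is for the gene as a whole, as the table lists it.

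The 10 genes spanned a wide range of levels. Per kilobase of exon, Ccnd1 was the most abundant in untreated pLKO cells, at 69.5 CPM per kilobase, followed by Dusp6 at 37.5, Dusp4 at 22.6 and Spred1 at 18.4. Spry2 (4.59) and Etv5 (4.11) came next and did not differ beyond the spread between their libraries. The same held for Etv1 (1.14) and Etv4 (1.11), and for Egr1 (0.489) and Spry4 (0.435), the lowest pair. Exon length here is the union of all annotated exons of a gene, 13296 bases for Etv1 and 3104 for Etv4. Before division by length Etv1 was at 15.1 CPM and Etv4 at 3.45 CPM, so their order depends on this choice. With IFN-γ the order at the top changed in both lines, Dusp6 standing above Ccnd1 at 64.4 against 39.8 CPM per kilobase in pLKO and 72.0 against 30.4 in shDRG2 cells. Together the 10 genes took 648 to 713 CPM in untreated pLKO libraries and 482 to 519 CPM in shDRG2 libraries with IFN-γ.

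**Figure D1:**
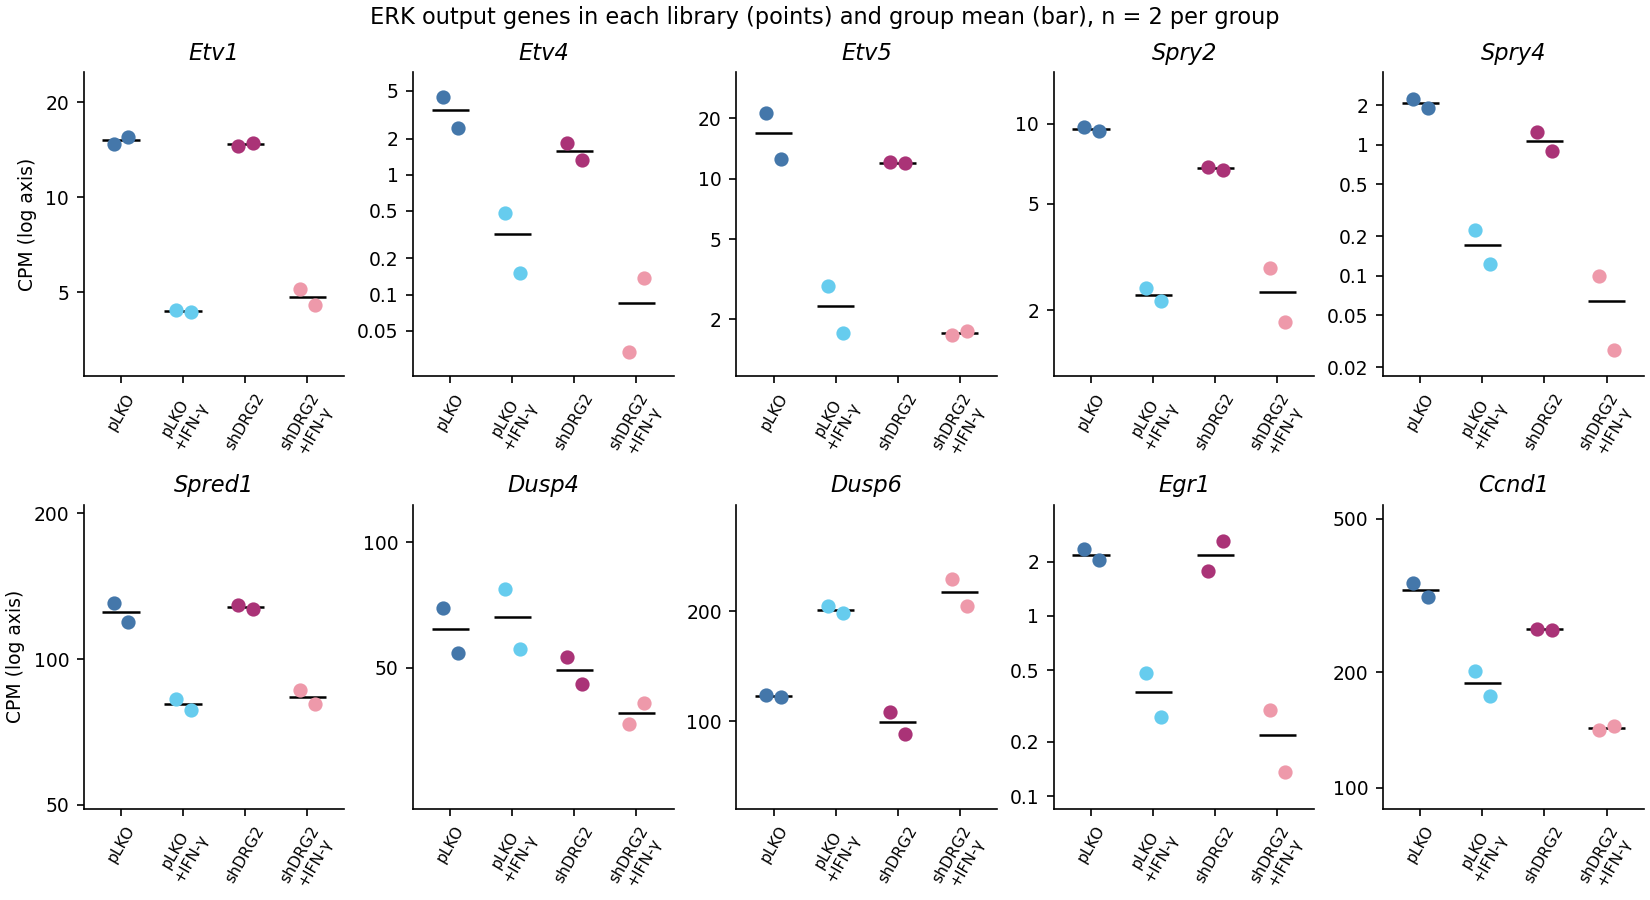
CPM (log axis, a separate range per gene) of the 10 genes in each of the 8 libraries, with points for libraries and bars for the mean of each group of 2. Etv1, Etv4, Etv5, Spry2, Spry4, Spred1, Egr1 and Ccnd1 lie lower with IFN-γ in both lines, Dusp6 lies higher, and the untreated and treated libraries of Dusp4 overlap in pLKO cells.

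IFN-γ lowered most of these genes in pLKO cells and raised 1 of them. Of the 10, 8 fell, Dusp6 rose and Dusp4 did not pass the test. The median log2 fold change was -1.93, against 0.01 over all 13500 genes. Over all genes, 12.7% were called lower, 15.4% higher and 28.1% in either direction. The 10 genes were chosen with earlier results of these data known, so setting them beside all genes is a description only. Etv4, Spry4 and Egr1 reached the filter's minimum of about 0.316 CPM in both untreated groups but not in every treated library, so their passing the filter favoured a fall. Of the other 7 genes, 5 fell and 1 rose, and their median was -0.81. In shDRG2 cells the same 8 genes fell and Dusp6 rose (median -1.58, or -0.85 over those 7 genes, against 0.00 over all genes), where 15.2% of all genes were called lower, 16.2% higher and 31.4% in either direction. All 9 calls held in each line under each of the 15 alternative analyses, left-out libraries included.

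Etv4 and Spry4 had the largest fitted falls in both lines, and all 3 PEA3 genes fell. Etv5, which with Etv4 is among the most direct ERK readouts, was at 21.1 and 12.6 CPM in untreated pLKO libraries and at 2.93 and 1.71 CPM with IFN-γ. In shDRG2 cells it was at 12.07 and 11.97 CPM without and 1.67 and 1.75 CPM with IFN-γ. In both lines every treated library lay below every untreated one, although the untreated pLKO libraries differed from each other by more than the shDRG2 ones. On the log2 scale it fell by 2.88 in pLKO (SE 0.280, adjusted p = 3.09e-05), which is 7.36-fold. In shDRG2 cells the change was -2.81 (SE 0.289, adjusted p = 4.10e-05), or 7.01-fold.

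Etv4 was at 4.46 and 2.44 CPM in untreated pLKO libraries and at 0.482 and 0.152 CPM with IFN-γ, that is 146 and 78 counts against 13 and 5. In shDRG2 cells it was at 1.83 and 1.32 CPM and then at 0.0333 and 0.137 CPM, or 59 and 34 counts against 1 and 5. The ranges did not meet in either line, but the treated values rest on few reads. The fitted change was -3.48 (SE 0.522, adjusted p = 0.000661) in pLKO and -4.09 (SE 0.660, adjusted p = 0.000923) in shDRG2 cells. The ratio of summed counts, scaled for depth, was 11.5 in pLKO (95% exact counting interval 7.11 to 19.8) and 17.8 in shDRG2 cells (7.88 to 49.8). These intervals cover counting error only. The fitted size depended on single treated libraries, at -4.46 and -2.83 without pLKO IFN-γ replicate 1 or 2, and at -3.50 and -5.40 without shDRG2 IFN-γ replicate 1 or 2.

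Etv1 kept more of its level than Etv4 and Etv5. It was at 14.7 and 15.5 CPM in untreated pLKO libraries and at 4.38 and 4.32 CPM with IFN-γ. The shDRG2 values were 14.6 and 14.9 CPM, then 5.10 and 4.54 CPM. Replicates lay close together in all 4 groups and the treated ones were separate from the untreated. Etv1 fell 3.48-fold in pLKO (-1.80, SE 0.123, adjusted p = 1.98e-06). Its fall in shDRG2 cells was 3.06-fold (-1.61, SE 0.121, adjusted p = 3.72e-06). It was the only one of the 10 genes with fractional counts, in 6 of 8 libraries, which estimated counting gives where reads match more than 1 entry, so its level is less certain on that account.

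Among the inhibitors that act on RAS and RAF, the Sprouty genes fell further than Spred1. Spry4 was at 2.23 and 1.91 CPM in untreated pLKO libraries and at 0.222 and 0.122 CPM with IFN-γ, or 73 and 61 counts against 6 and 4. In shDRG2 libraries it was at 1.24 and 0.891 CPM and then at 0.0999 and 0.0274 CPM, the last from 3 counts and 1 count. Spry4 was thus near the lower limit of detection in all 4 treated libraries. Its fitted change was -3.59 (SE 0.443, adjusted p = 0.000178) in pLKO and -4.07 (SE 0.553, adjusted p = 0.000291) in shDRG2 cells. Spry4 passed the filter on low counts only through its untreated libraries, which favoured a fall. The ratio of summed counts was 12.4 (counting interval 6.53 to 26.4) and 18.1 (6.73 to 68.4). The shDRG2 change was -5.11 without the treated replicate 1 and -3.37 without replicate 2.

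Spry2 was at 9.75 and 9.42 CPM in untreated pLKO libraries and at 2.41 and 2.16 CPM with IFN-γ, a 4.20-fold fall (-2.07, SE 0.207, adjusted p = 3.84e-05). In shDRG2 cells it went from 6.90 and 6.70 CPM to 2.87 and 1.81 CPM, a 2.94-fold fall (-1.56, SE 0.208, adjusted p = 0.000259). The treated libraries of the lines overlapped. Spred1, a membrane-bound inhibitor that works with neurofibromin, was at 130.4 and 119 CPM in untreated pLKO libraries and at 82.6 and 78.6 CPM with IFN-γ. The shDRG2 values were 129.6 and 127 CPM, then 86.5 and 80.7 CPM. Its fall was 1.55-fold in pLKO (-0.63, SE 0.0784, adjusted p = 0.000186). For shDRG2 cells it was 1.54-fold (-0.62, SE 0.0783, adjusted p = 0.000180).

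The phosphatase genes did not follow the others. DUSP6 is a cytoplasmic phosphatase selective for ERK, and its gene was at 118 and 116 CPM in untreated pLKO libraries and at 206 and 197 CPM with IFN-γ. In shDRG2 cells it was at 106 and 92.4 CPM and then at 244 and 207 CPM. Every treated library stood above every untreated one. Dusp6 rose 1.72-fold in pLKO (0.78, SE 0.0983, adjusted p = 0.000203). Its rise in shDRG2 cells was 2.27-fold (1.18, SE 0.0992, adjusted p = 8.49e-06).

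DUSP4 is a nuclear phosphatase of ERK and related kinases. Dusp4 was at 69.4 and 54.3 CPM in untreated pLKO libraries and at 77.1 and 55.4 CPM with IFN-γ. In shDRG2 cells it was at 52.9 and 45.7 CPM without and at 36.6 and 41.1 CPM with IFN-γ. The pLKO ranges overlapped and the shDRG2 ranges did not. The change was 0.10 in pLKO (95% interval -0.26 to 0.45, adjusted p = 0.707) and -0.34 in shDRG2 cells (interval -0.71 to 0.02, adjusted p = 0.140). The shDRG2 value passed the test in 3 alternatives, with adjusted p of 0.00614 when no genes were filtered, 0.0491 under the replicate block and 0.0360 from the compared groups alone.

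Egr1, an immediate-early gene that ERK induces through serum response elements, was scarce. It was at 2.35 and 2.03 CPM in untreated pLKO libraries and at 0.482 and 0.274 CPM with IFN-γ, or 77 and 65 counts against 13 and 9. In shDRG2 libraries it was at 1.77 and 2.60 CPM and then at 0.300 and 0.137 CPM, or 57 and 67 counts against 9 and 5. Treated and untreated libraries were separate in both lines. Its fitted change was -2.55 (SE 0.404, adjusted p = 0.000943) in pLKO and -3.33 (SE 0.436, adjusted p = 0.000228) in shDRG2 cells. The ratio of summed counts was 5.97 (counting interval 3.79 to 9.82) and 10.2 (5.84 to 19.2). Over the 15 alternatives the change lay between -3.95 and -2.83 in shDRG2 and between -2.97 and -2.18 in pLKO cells.

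Ccnd1 encodes cyclin D1, which with its kinases drives cells into S phase and depends on sustained ERK signalling. It was at 341 and 314 CPM in untreated pLKO libraries and at 201 and 174 CPM with IFN-γ. The shDRG2 libraries were at 259 and 258 CPM, then at 141 and 145 CPM. It fell 1.75-fold in pLKO (-0.81, SE 0.0870, adjusted p = 6.82e-05). The shDRG2 fall was 1.80-fold (-0.85, SE 0.0873, adjusted p = 4.02e-05). A gene on the opposite strand, LTO1, takes in 23.4% of Ccnd1's exon sequence and is listed in the table under its older symbol Oraov1. Strandedness is not stated, so reads of both could be mixed, and this was not tested. Oraov1 itself was at 17.4 to 20.8 CPM over the 8 libraries. Ccnd1 was the only one of the 10 genes whose exons overlap another annotated gene.

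**Figure D2:**
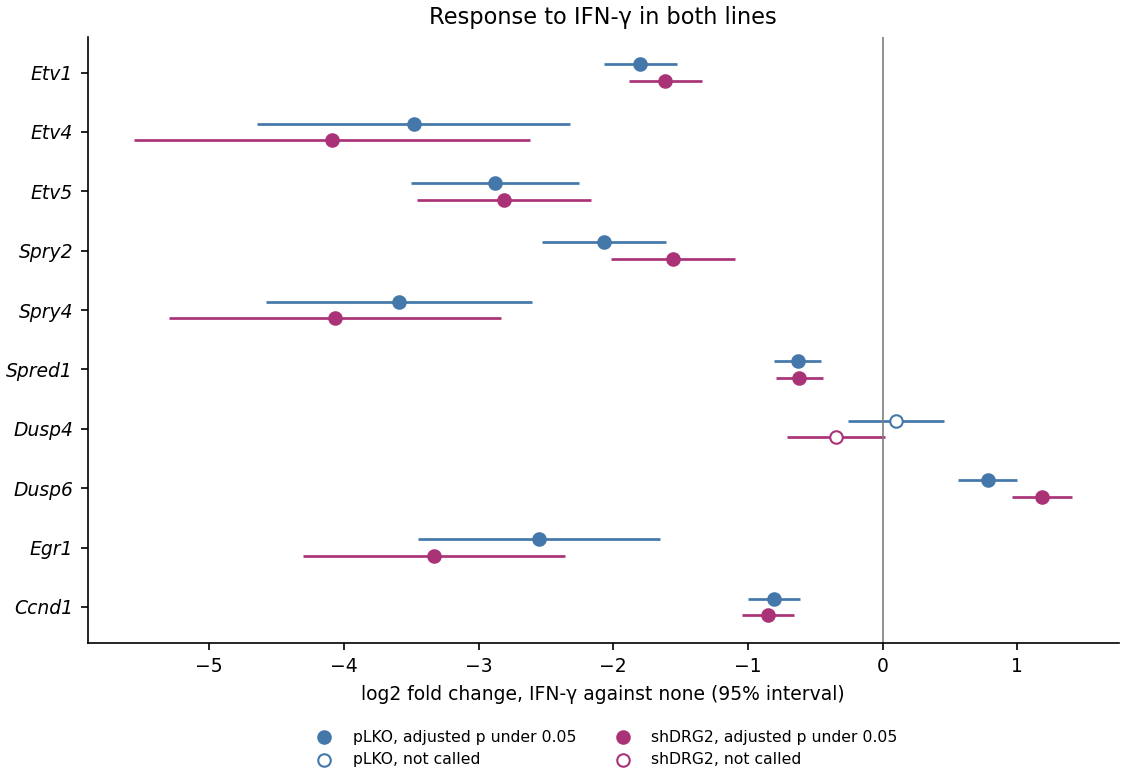
Log2 fold change of each gene under IFN-γ (horizontal axis) in pLKO and shDRG2 cells, with 95% intervals from the fit, filled where the adjusted p was under 0.05. Etv4, Spry4, Etv5 and Egr1 lie furthest to the left with the widest intervals for Etv4 and Spry4, Dusp6 lies to the right of 0, and the intervals of both lines overlap for each gene.

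The size of the IFN-γ response was compared between lines by the interaction term, which asks whether the knockdown line answered differently. None of the 10 genes passed (smallest adjusted p = 1.00), where 0.00741% of all genes, a single gene, were called. At an unadjusted p under 0.05 there was 1 of the 10, Dusp6, against 2.38% of all genes, and DESeq2 called 0. The Dusp6 difference was 0.40 (95% interval 0.09 to 0.71), the rise being larger in shDRG2 cells. For Spry2 it was 0.51 (interval -0.14 to 1.17), for Dusp4 -0.44 (-0.95 to 0.07) and for Etv1 0.19 (-0.20 to 0.57). The intervals were narrow for Spred1 (-0.23 to 0.26) and Ccnd1 (-0.32 to 0.23), and wide for Etv5 (-0.85 to 0.99), Egr1 (-2.18 to 0.61), Spry4 (-2.21 to 1.25) and Etv4 (-2.65 to 1.44). The sign for Etv4 changed without pLKO IFN-γ replicate 1 (0.38) and that for Spry4 without shDRG2 IFN-γ replicate 2 (0.21). The intervals of the scarcest genes, Etv4, Spry4 and Egr1, thus did not exclude a difference of several-fold. For Egr1 this held only toward a larger fall in shDRG2 cells. How far low counts and scatter between libraries each widened these intervals was not tested.

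Without IFN-γ, none of the 10 genes passed the test between shDRG2 and pLKO cells by edgeR, where 1.2% of all genes were called, 0.467% higher and 0.733% lower. At an unadjusted p under 0.05 there were 5 of the 10, against 12.8% of all genes, and DESeq2 called 1, Ccnd1, among 302 calls over all genes. The median was -0.33, against 0.01 over all genes, and 9 of 10 values were below 0. Without pLKO replicate 1 the median was -0.19, with 8 of 10 below 0. Ccnd1 came closest. Its values were 341 and 314 CPM in pLKO against 259 and 258 CPM in shDRG2 libraries, ranges that did not meet (-0.34, 95% interval -0.54 to -0.15, adjusted p = 0.0960). It passed under DESeq2 (adjusted p = 0.0232), when no genes were filtered (0.0132) and under the replicate block (0.0190).

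The other values with unadjusted p under 0.05 were -1.12 for Etv4 (interval -2.06 to -0.18), -0.94 for Spry4 (-1.70 to -0.19), -0.49 for Spry2 (-0.91 to -0.07) and -0.24 for Dusp6 (-0.46 to -0.02). Both untreated shDRG2 libraries lay below both pLKO libraries for each of them. These genes were picked by p-values from the same libraries, so the separation is no further evidence. The adjusted p-values were 0.286, 0.261, 0.290 and 0.327. Without a filter, Etv4 passed at 0.00930 and Dusp4 (-0.32) at 0.0454. Etv5 was at -0.49 (interval -1.02 to 0.05), Etv1 at -0.04 (-0.29 to 0.21), Spred1 at 0.04 (-0.13 to 0.21) and Egr1 at -0.01 (-0.75 to 0.72). The pLKO libraries differed in Etv5, Etv4 and Dusp4, and without pLKO replicate 1 these were at -0.07, -0.63 and -0.15. Without pLKO replicate 2 they were at -0.81, -1.49 and -0.49. Leaving out shDRG2 replicate 2 put Dusp6 at -0.14. Egr1 lay between -0.31 and 0.24 with a library left out.

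With IFN-γ, Dusp4 was the only one of the 10 genes called between the lines, where 1.67% of all genes were called, 0.504% higher and 1.17% lower. It was at 77.1 and 55.4 CPM in pLKO against 36.6 and 41.1 CPM in shDRG2 libraries, so the ranges did not meet, and it was 1.70-fold lower in shDRG2 cells (-0.77, SE 0.162, 95% interval -1.13 to -0.41, adjusted p = 0.0478). The call is marginal. It was lost without pLKO IFN-γ replicate 1, the highest library (-0.51, adjusted p = 0.214), without shDRG2 IFN-γ replicate 1 (0.360) or 2 (0.175), and without untreated shDRG2 replicate 1 (0.0676) or 2 (0.0656). It was also lost with RLE size factors (0.0501) and with only the groups compared (0.0587).

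Ccnd1 again lay just outside the threshold, at 201 and 174 CPM against 141 and 145 CPM (-0.39, 95% interval -0.58 to -0.19, adjusted p = 0.0604). It passed in 6 of 15 alternatives, with adjusted p between 0.00346 and 0.0460, the last without pLKO IFN-γ replicate 2. The 2 comparisons of Ccnd1 between lines used separate libraries, and gave values of like size. Both set the same 2 lines against each other in 1 shared fit, so they are not independent replication. Dusp6, at -0.24 without IFN-γ, was at 0.16 with it (interval -0.05 to 0.38), and Spry2, at -0.49 without, was at 0.02 (-0.48 to 0.52). Etv4 (-1.73), Spry4 (-1.42) and Egr1 (-0.80) had intervals that reached above 0, as did Etv5 (-0.42), Etv1 (0.14) and Spred1 (0.05). These values depended on single treated libraries: with 1 left out Etv4 lay between -3.05 and -0.74, Spry4 between -2.46 and -0.73 and Egr1 between -1.41 and -0.30. Etv5 was at 0.00 without pLKO IFN-γ replicate 1 and at -0.77 without replicate 2. Spry2 was at -0.34 without shDRG2 IFN-γ replicate 1 and at 0.33 without replicate 2. The line comparisons and the IFN-γ comparisons use the same 8 libraries, so a group that is high or low enters more than 1 of them.

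**Figure D3:**
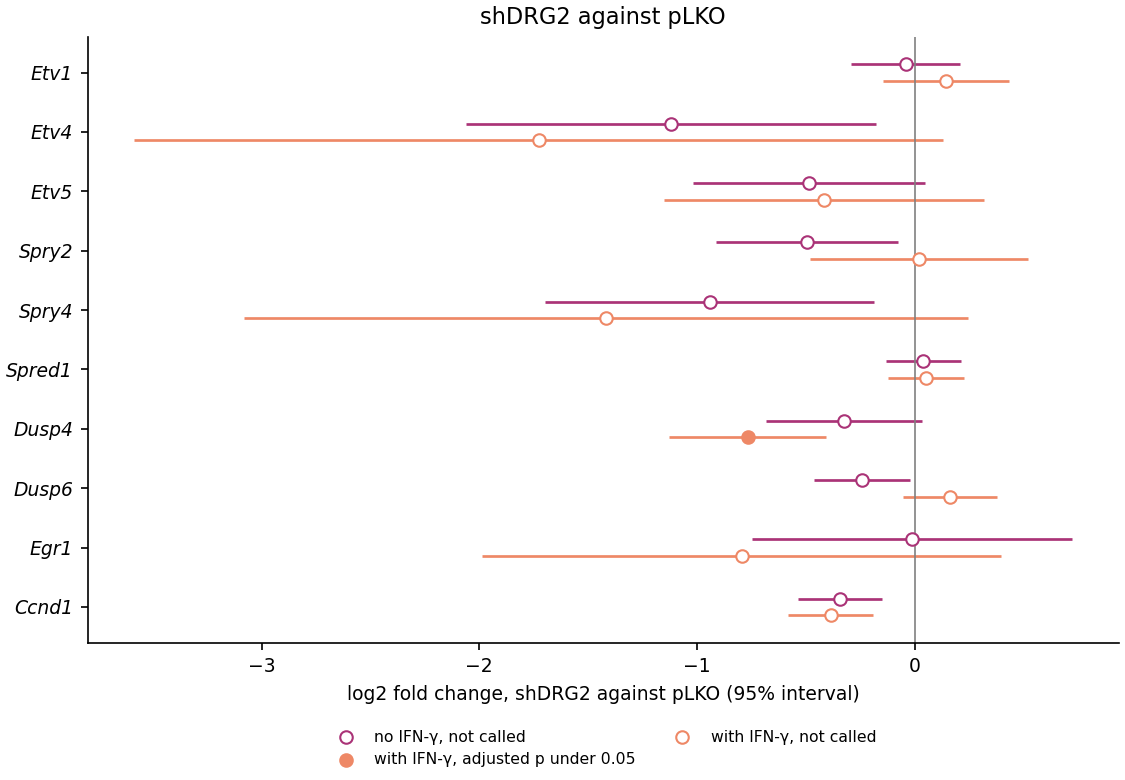
Log2 fold change of each gene in shDRG2 against pLKO cells (horizontal axis) without and with IFN-γ, with 95% intervals from the fit, filled where the adjusted p was under 0.05. Dusp4 with IFN-γ, at -0.77, is the only filled point, and both intervals of Ccnd1 lie below 0.

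Spry2 lies on chromosome 14 (105891947 to 105896819, minus strand), whose 436 tested genes had a median of -0.28 between shDRG2 and pLKO cells without IFN-γ and of -0.27 with it, against 0.01 on other chromosomes in both. Of the 16 other tested genes starting within 5 Mb of it, none was called by edgeR without IFN-γ and 1 with it, Kctd12 (-1.37). The medians of the 16 were -0.24 and -0.26. Relative to the chromosome's median, Spry2 was at -0.21 without and 0.29 with IFN-γ, in place of -0.49 and 0.02. IFN-γ itself left the median of this chromosome at 0.02 in pLKO and 0.01 in shDRG2 cells. The other 9 genes lie on chromosomes 2 (Spred1), 7 (Ccnd1), 8 (Dusp4), 10 (Dusp6), 11 (Etv4), 12 (Etv1), 16 (Etv5) and 18 (Spry4, Egr1), whose medians between lines were between -0.00 and 0.06. The part of the chromosome in the Spry2 values was not tested.

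**Figure D4:**
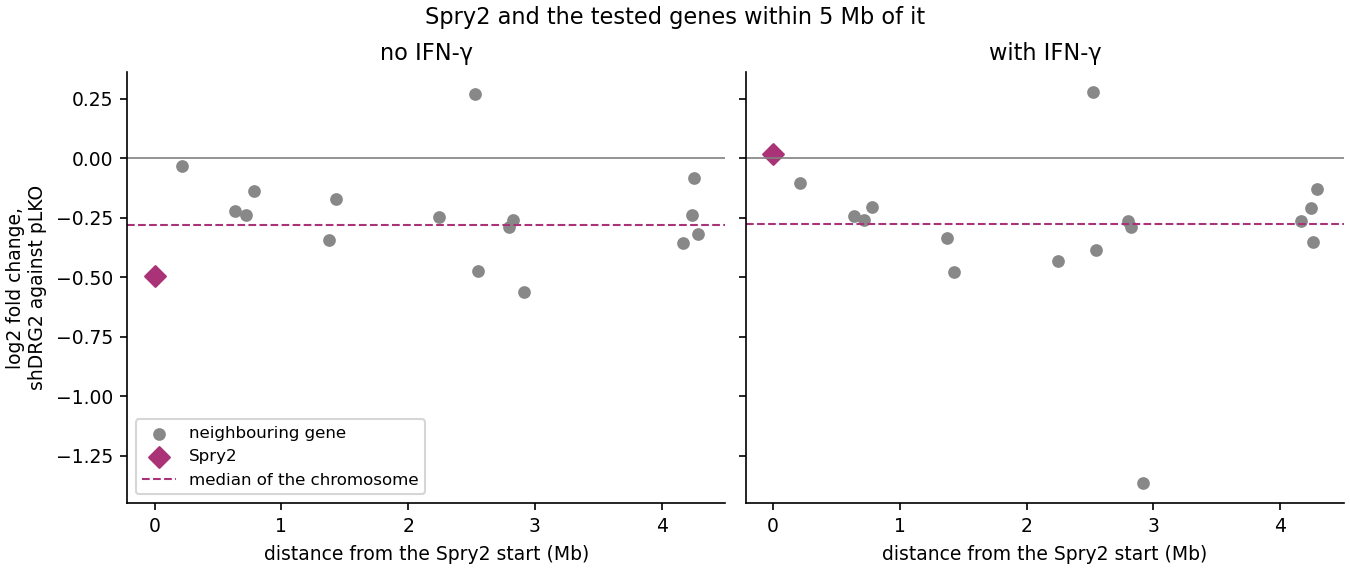
Log2 fold change in shDRG2 against pLKO cells of Spry2 (diamond) and the 16 tested genes within 5 Mb (points), by distance from the start of Spry2, without IFN-γ on the left and with it on the right; the dashed line is the median of the chromosome. Most neighbours lie below 0 on both sides, and Spry2 lies below the line on the left and above it on the right.

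The rest of the pathway was read from 7 lists with 121 genes, of which 100 were tested. With IFN-γ in pLKO cells 15 rose and 31 fell, 46.0% in all against the 28.1% of all genes. In shDRG2 cells 17 rose and 30 fell, 47.0% against 31.4%. Of these, 40 were called in both lines, all in the same direction. No like share over all genes is given, so this count does not set the lists apart from other genes. The lists were chosen with earlier results of these data known. They were not matched to all genes in expression level, so these shares are descriptions only. Of 13 tested genes in the list of RAF, MEK, ERK and scaffolds, 1 rose and 2 fell in pLKO cells, with a list median of -0.00, and 2 rose and 2 fell in shDRG2 cells, shares near those of all genes. Map2k1, the gene of MEK1, rose (0.30, adjusted p = 0.0265, and 0.38, adjusted p = 0.00722, in shDRG2 cells). The scaffold gene Iqgap1 fell in both lines (-0.40 and -0.41, adjusted p = 0.00925 and 0.00684).

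Of 7 kinases that ERK activates, 4 fell and 1 rose in each line. Over all genes 12.7% fell and 15.4% rose in pLKO cells, and 15.2% fell and 16.2% rose in shDRG2 cells. Mknk2, which phosphorylates the cap-binding factor eIF4E, fell from 182 to 83.9 CPM in pLKO (-1.12, adjusted p = 1.78e-05) and from 183 to 69.2 CPM in shDRG2 cells (-1.40, adjusted p = 2.94e-06). Its relative Mknk1 rose (0.84 and 0.94, adjusted p = 0.000362 and 0.000153). The RSK2 gene Rps6ka3 fell (-0.53 and -0.69, adjusted p = 0.000309 and 4.18e-05).

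Other feedback inhibitors also moved both ways. Of 13 tested, 7 fell and 1 rose in pLKO cells (median -0.48), and 8 fell and 1 rose in shDRG2 cells (median -0.60). The shares of all genes were 12.7% lower and 15.4% higher in pLKO cells, and 15.2% and 16.2% in shDRG2 cells. Spred2 fell from 41.6 to 13.7 CPM in pLKO (-1.61, adjusted p = 4.15e-06) and from 39.3 to 11.2 CPM in shDRG2 cells (-1.81, adjusted p = 1.58e-06). Spry1 fell (-1.16 and -2.51, adjusted p = 0.0136 and 0.000234), as did Errfi1, an inhibitor of the EGF receptor (-0.85 and -0.996, adjusted p = 0.000737 and 0.000228). Spry1 was scarce, with means of 1.92 and 0.856 CPM in pLKO cells without and with IFN-γ. Its treated shDRG2 libraries, at 0.328 and 0.333 CPM, lay near the filter's minimum of about 0.316 CPM. The gene that rose was Dusp10, a phosphatase that prefers JNK and p38, from 4.33 to 10.5 CPM in pLKO cells (1.28 and 1.14, adjusted p = 4.25e-05 and 8.50e-05).

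Among 17 tested genes of the list of other ERK-responsive genes, 2 rose and 5 fell in pLKO cells, and 3 rose and 4 fell in shDRG2 cells. Beside these stand 15.4% higher and 12.7% lower of all genes in pLKO cells, and 16.2% and 15.2% in shDRG2 cells. The AP-1 genes Jun (1.14 and 1.28, adjusted p = 4.00e-05 and 1.50e-05) and Junb (0.43 and 0.75, adjusted p = 0.0121 and 0.000341) rose where Egr1 fell. The immediate-early gene Ier2 fell (-0.91 and -0.92, adjusted p = 0.000390 and 0.000308), and so did the chromatin factor gene Hmga2 (-0.86 and -0.83, adjusted p = 0.000179 and 0.000207). Fos was at 0.99 and 0.47 and Phlda1 at -0.26 and -0.11, neither called. Ccnd2, the most abundant of the list, was at -0.27 in pLKO (adjusted p = 0.0611) and fell in shDRG2 cells (-0.41, adjusted p = 0.00871).

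Of the 13 ETS factors and repressors, 3 rose and 2 fell in pLKO cells, and 4 rose and 2 fell in shDRG2 cells. For this list and the receptor and adaptor lists below, the shares of all genes were 15.4% higher and 12.7% lower in pLKO cells. In shDRG2 cells they were 16.2% and 15.2%. Elk3 fell from 44.7 to 13.9 CPM in pLKO (-1.69, adjusted p = 1.31e-07) and from 44.9 to 11.5 CPM in shDRG2 cells (-1.96, adjusted p = 4.00e-08). Elf1 (1.18 and 1.23, adjusted p = 0.000186 and 0.000133) and the repressor gene Etv6 (0.80 and 0.84, adjusted p = 0.000610 and 0.000352) rose. Cic itself was at -0.10 and -0.09. Of 14 tested receptors and ligands, 3 rose and 4 fell in pLKO and 3 rose and 3 fell in shDRG2 cells, among them Kitl (2.62 and 2.67, adjusted p = 1.03e-05 and 4.55e-06) and Axl (1.33 and 1.00, adjusted p = 0.000213 and 0.00135), both higher, and Met (-0.35 and -0.66, adjusted p = 0.00440 and 5.80e-05), lower. Of 23 adaptors, RAS proteins and their regulators, 4 rose and 7 fell in pLKO and 3 rose and 7 fell in shDRG2 cells. The RAS relative Mras rose furthest in this list, from 28.6 to 118 CPM in pLKO (2.05, adjusted p = 7.12e-08) and from 43.5 to 121 CPM in shDRG2 cells (1.48, adjusted p = 7.00e-07).

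**Figure D5:**
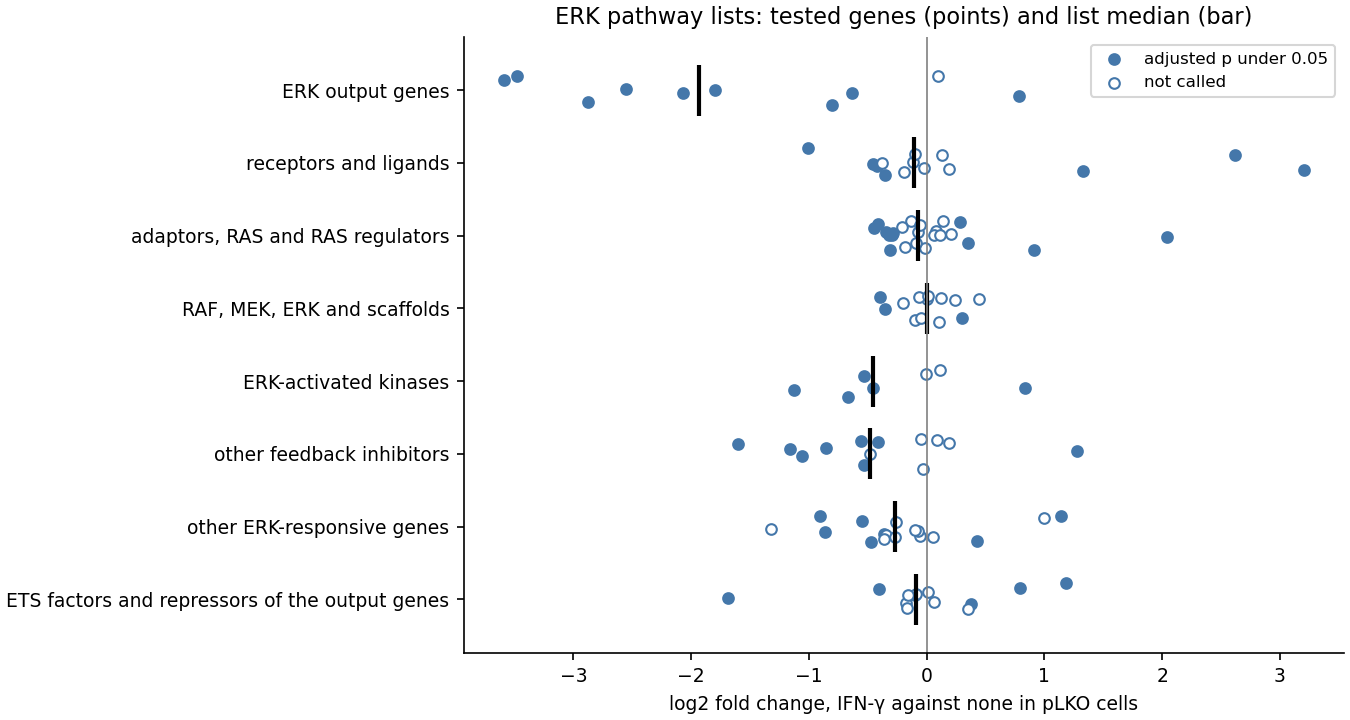
Log2 fold change under IFN-γ in pLKO cells (horizontal axis) of each tested gene, in rows by list, with bars at the list medians and filled points where the adjusted p was under 0.05. The bar of the 10 ERK output genes lies at -1.93, where the filter favoured falls of Etv4, Spry4 and Egr1 (-0.81 over the other 7), and that of the RAF, MEK and ERK row at -0.00.

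Between the lines, 1 of these 100 genes was called without IFN-γ, Mras, higher in shDRG2 cells (0.61, adjusted p = 0.0139), which is 1.0% of them. At an unadjusted p under 0.05 there were 13, a share near the 12.8% of all genes, and DESeq2 called 4, Hmga2, Mapk3, Met and Mras. With IFN-γ, edgeR and DESeq2 each called 0 and there were 21 at an unadjusted p under 0.05, against 1616 of all 13500 genes. For the difference between responses edgeR and DESeq2 called 0, with 5 at an unadjusted p under 0.05, against 2.38% of all genes.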

How the data were processed

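The deposited table holds estimated counts for each gene without scaling between libraries. STAR, Salmon 1.5.2 and the build mm10 are named in the submitters' processing notes, with no roles. Of the nonzero values 86.4% were whole to within 0.0015. The table has 45583 entries, and 27 with names turned into dates (0.204% to 0.212% of a library) were left out. Library totals (25422758 to 36654519 counts) and 2 libraries per group limit the precision.

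After rounding, counts went through edgeR 4.0.16 (R 4.3.3): filterByExpr (minimum count 10), TMM scaling, and a quasi-likelihood F test (two-sided) with 1 coefficient per group over 8 libraries. Benjamini-Hochberg adjustment ran over 13500 genes at 0.05. The procedure was tested on simulated data. Unless another tool is named, adjusted p-values, log2 fold changes, SE and 95% intervals are from this fit. Alternatives used DESeq2 1.42.0, other scalings, no filter, a replicate block, only the groups compared and leaving out each library. Positions and exon lengths are from GENCODE M21 (GRCm38, as mm10). All 10 genes are named, and other genes by list, up to 8 called and the 3 most abundant each. Genes and lists were chosen with earlier results of these data known.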

Additional observations from a re-analysis of the deposited data

How the results depend on the processing

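The 9 IFN-γ calls among the 10 genes held in each line under all 15 alternatives; with no filter, the replicate block and only the groups compared, Dusp4 made 10 in shDRG2 cells. No alternative reversed a called value, and no scaling moved the median of all genes by over 0.1. The line comparisons depended on the choices. Without IFN-γ the count among the 10 was 0, but 3 when no genes were filtered, 1 under DESeq2 and 1 under the replicate block, and all genes called went from 162 to 678, 302 and 673. Left-out libraries gave 27 (shDRG2 replicate 1), 37 (pLKO replicate 1), 61 (replicate 2 of either), 103 and 108 (shDRG2 IFN-γ replicates 2 and 1) up to 167 genes, and 0 of the 10.

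With IFN-γ the count among the 10 was 1, and 0 with RLE size factors or only the groups compared, or 2 with upper-quartile scaling, library size only, no filter, DESeq2 or the replicate block. All genes called went from 226 to 653 without a filter, 675 with the block and 124 with only the groups compared. Left-out libraries gave 0 to 2 of the 10, and 44 (shDRG2 IFN-γ replicate 1), 58 (replicate 2), 86 and 123 (pLKO IFN-γ replicates 1 and 2) up to 202 genes. With a library left out, the IFN-γ counts over all genes were 2482 (pLKO replicate 1) and 2495 (pLKO IFN-γ replicate 2) up to 3749 in pLKO, against 3796, and 2720 (shDRG2 IFN-γ replicate 1) up to 4297 in shDRG2 cells, against 4233. The difference between responses went from 1 gene to 58 without a filter, 7 with DESeq2, 2 with the block and 1 to 2 with a library left out (2 without pLKO replicate 1), with 0 of the 10 in each. With a library left out, the lone one of its group is assumed to vary like the others. The causes were not tested. Same-numbered libraries deviated together (r of 0.107 to 0.274 between groups across 13500 genes, which are not independent), but with 2 numbers and no label this does not show pairing. Among the 10 genes, low counts limit Etv4, Spry4 and Egr1 most, with 4 to 22 counts per treated group.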

Other observations

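Etv4 had the widest range of group means among the 10 genes, 5.34 on the log2 CPM scale. Over the 8 libraries, the genes whose log2(CPM + 0.1) followed it most closely, among 10038 genes averaging 5 CPM or more, were Nup210 (Pearson r = 0.996), Kif18b (0.993), Dnmt1 (0.991), Gtse1 (0.991) and Nucks1 (0.991). These values describe 8 libraries that fall into 4 groups, and the Etv4 profile rests on few counts in the treated ones. The r describes how closely the log values rise and fall together, and not the size of the changes. It also depends on the added 0.1, since treated Etv4 values lay at 0.0333 to 0.482 CPM. Nup210, the nucleoporin gene, had means of 143 and 85.6 CPM in pLKO cells without and with IFN-γ, and of 117 and 72.3 CPM in shDRG2 cells.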
